A study of Mus musculus with 38 samples.

Results

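The testes of B6-ChrXMSM males were compared with those of B6 males at 7 days post partum (dpp), with 3 males of each strain and 1 array per male, which are 6 of the 38 arrays of the series. They were chosen by strain and age as labelled, and not by any measured value. B6 is a standard inbred laboratory strain. B6-ChrXMSM carries the X chromosome of MSM, an inbred strain derived from wild Japanese mice, on an otherwise B6 background, so that its autosomes are those of B6 and only its X chromosome comes from the other subspecies. Neither group was treated, all 6 males had the age of 7 dpp, and the RNA came from whole testes. Because the whole X chromosome was exchanged, the part of any single X-linked gene in a difference cannot be told apart from that of the others. Values of 4 further groups are set beside them where they bear on a result, namely B6-ChrXMSM and B6 males at 5 dpp (3 each), MSM males at 7 dpp (3) and males of B6-ChrXTMSM at 7 dpp (3), which carry only a distal segment of the MSM X chromosome.

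At this age the seminiferous tubules hold Sertoli cells, which nurse the germ cells, and spermatogonia, a part of which are about to turn to meiosis. Peritubular myoid cells, Leydig cells, vessels and macrophages lie around the tubules. Sertoli cells are still dividing and immature, and they later stop dividing, change their junctions and seal the tubule. Spermatogonia answer to retinoic acid, start to express *Kit* and *Stra8*, and then enter meiosis. In RNA from a whole organ, fewer cells of a type and less RNA per cell cannot be told apart.

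The values are log2 signals, so that a difference of 1 is a 2-fold difference. Median log2 signals over all probe sets ranged from 2.63 to 2.68 in B6-ChrXMSM arrays and stood at 2.69 in each B6 array. Markers of testicular cells were present in both groups. The Sertoli cell gene *Clu* gave 11.38, 11.47 and 11.44 in B6-ChrXMSM testes and 11.57, 11.40 and 11.48 in B6 testes. *Sox9* and *Wt1*, which Sertoli cells need as transcription factors, differed by -0.14 and 0.02 on the log2 scale and were not called. The germ cell genes *Ddx4* and *Dazl*, which encode an RNA helicase and an RNA-binding protein, were expressed in both groups at lower levels in B6-ChrXMSM testes, with log2 fold changes of -1.12 and -1.38 (adjusted p = 0.000111 and 7.62e-05 from limma).

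A probe set was called where the adjusted p from limma was under 0.05 and the change was at least 1.5-fold. On the autosomes, 219 of 16618 probe sets were called higher in B6-ChrXMSM testes than in B6 testes (1.32%) and 715 were called lower (4.30%). They stood for 179 genes and 624 genes. On the X chromosome, probe sets that the study lists as polymorphic, for their sequence differences between the strains, had been removed. The study kept those with fewer differences, so mismatches to the MSM sequence can remain. Of 501 X-linked probe sets tested, 33 were called higher (6.59%) and 74 lower (14.8%). Counted with 1 probe set per gene, 1.63% of 10098 genes were called higher and 4.47% lower, and the median log2 fold change was 0.00. Counts over gene lists use 1 probe set per gene as well, that with the strongest signal, and genes called only by another probe set are given beside them. Each such count is to be read beside the 1.63% higher and 4.47% lower over all genes. The lower genes of the germ line (14 of 15 tested genes of the meiotic prophase list and 16 of 18 of the germ cell and piRNA list) are not pursued here, and the text turns to the higher autosomal genes, to the genes of supporting cells and metabolism, and to X-linked genes with roles outside of meiosis.

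Among the higher autosomal genes were both members of a keratin pair and the core of the desmosome. Keratins 8 and 18 form the intermediate filaments of simple epithelia and are expressed by immature Sertoli cells. *Krt8* had signals of 5.25, 5.26 and 5.32 in B6-ChrXMSM testes, against 3.01, 3.57 and 2.79 in B6 testes. The 3 B6-ChrXMSM males were almost equal and all lay above the B6 males, a separation required of genes named by size of change. The log2 fold change was 2.15 (standard error 0.17, 4.44-fold, adjusted p = 6.59e-05 from limma), and all 3 of its probe sets were called higher. Its partner *Krt18* gave 4.0, 3.71 and 4.12 in B6-ChrXMSM testes and 2.04, 2.32 and 2.50 in B6 testes (log2 fold change 1.65, adjusted p = 7.49e-05). Of the 12 tested genes for keratins and other intermediate filaments, these were the only ones called higher. The neurofilament gene *Nefh* was called lower, and *Vim*, the main filament of Sertoli cells, was not called at a log2 fold change of 0.17. A probe set for *Crisp1*, a gene of the epididymis, was also higher in all 3 B6-ChrXMSM males (4.07 to 5.13, against 0.13 to 0.33 in B6 males). Males of each group had the same order by it as by *Krt8*, in part by small differences, as set out with the duct genes.

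The genes of this pair are neighbours on chromosome 15 and are read from opposite strands. Their promoters are shown because both rose, as 250 bases before the start of transcription (RefSeq, GRCm38.p6), with capitals for the letters AGATAA, a site of GATA factors, searched on both strands. *Krt8* lies at chr15:102004343-102004592 on the minus strand and *Krt18* at chr15:102027966-102028215 on the plus strand.
Krt8: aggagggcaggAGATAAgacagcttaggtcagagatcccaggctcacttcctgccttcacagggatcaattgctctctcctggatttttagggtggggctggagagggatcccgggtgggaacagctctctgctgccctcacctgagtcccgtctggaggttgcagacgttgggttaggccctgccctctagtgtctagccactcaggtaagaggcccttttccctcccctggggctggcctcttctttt
Krt18: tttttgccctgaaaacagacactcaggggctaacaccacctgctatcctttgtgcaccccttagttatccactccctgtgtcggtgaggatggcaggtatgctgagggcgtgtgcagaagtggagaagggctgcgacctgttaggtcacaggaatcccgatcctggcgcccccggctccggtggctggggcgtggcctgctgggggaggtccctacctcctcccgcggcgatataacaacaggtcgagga
The *Krt8* window held 1 match and the *Krt18* window 0, and 9.99% of 32851 promoter windows of the same length held at least 1. A match of letters is a description and no measured site.

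Desmosomes are spot junctions that anchor keratin filaments at the membrane. *Dsp*, which encodes desmoplakin, the link between filaments and junction, gave 6.93, 7.14 and 7.01 in B6-ChrXMSM testes, against 5.12, 5.40 and 5.28 in B6 testes. The desmosomal cadherin gene *Dsg2* gave 5.31, 5.31 and 5.16 in B6-ChrXMSM testes and 3.58, 3.69 and 3.89 in B6 testes. In both genes the groups were separated by more than the whole spread within either of them. Both genes were chosen for groups without overlap. The log2 fold changes were 1.76 for *Dsp* (standard error 0.09, adjusted p = 1.13e-05) and 1.54 for *Dsg2* (standard error 0.09, adjusted p = 1.66e-05), both from limma. *Dsc2*, the second desmosomal cadherin, rose by 0.64 (adjusted p = 0.000378). These were the 3 higher genes among 24 tested genes of junction and adhesion, of which 2 were lower. Over all tested genes the shares were 1.63% higher and 4.47% lower. A further 3 junction genes (*Gja1*, *Cadm1* and *Jam2*) were called by another probe set. *Cldn11*, the claudin of the Sertoli cell barrier, was one of the lower genes, with 6.58, 6.71 and 6.63 in B6-ChrXMSM testes against 7.48, 7.32 and 7.51 in B6 testes (log2 fold change -0.80, adjusted p = 0.000113). The epithelial adhesion gene *Epcam*, which spermatogonia express, was the other (-0.71, adjusted p = 0.00299). The tight junction genes *Ocln* and *Tjp1* had log2 fold changes of 0.31 and -0.05 and were not called. The gap junction gene *Gja1* had 0.30 by its strongest probe set, and 1 of its 5 probe sets was called higher (0.81, adjusted p = 0.000904).

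**Figure D1:**
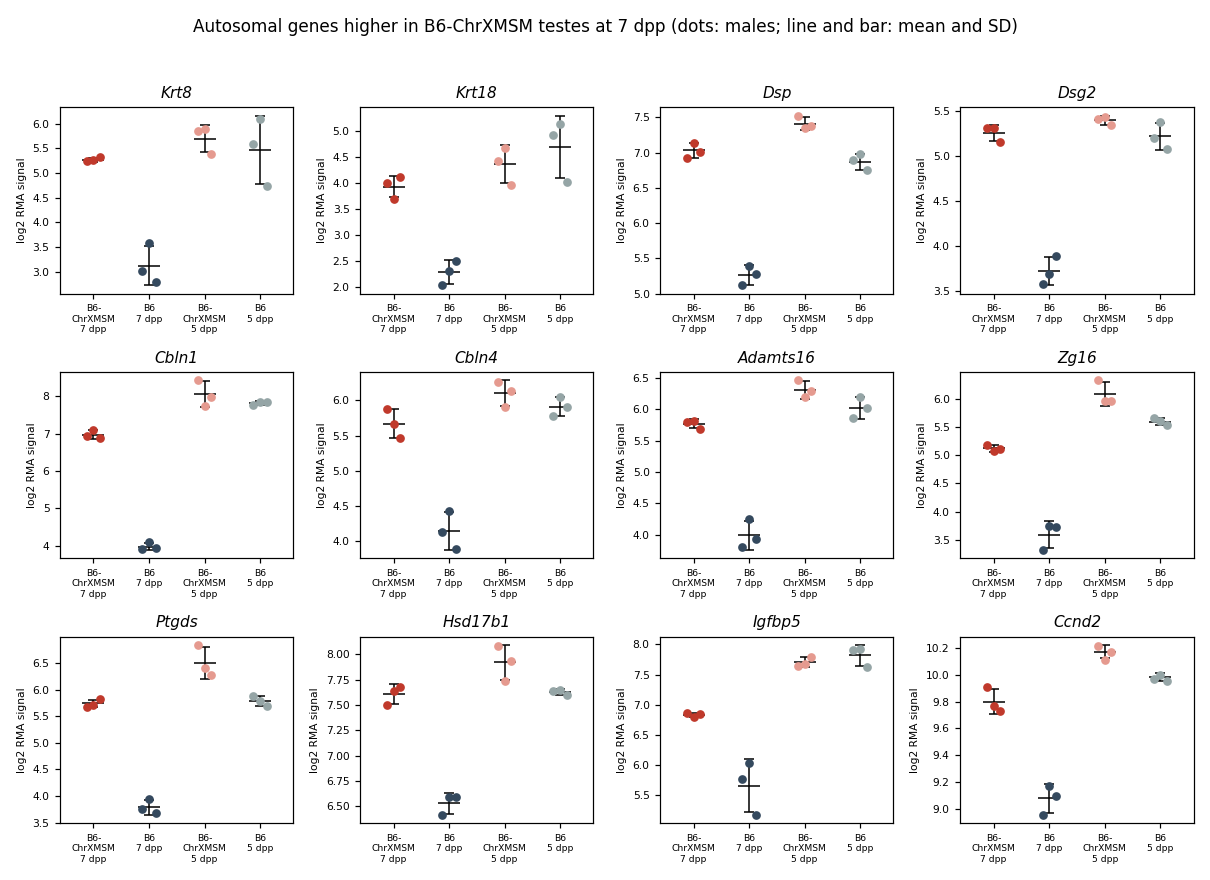
Log2 RMA signal (vertical axis) of 12 autosomal genes in single males (dots) of B6-ChrXMSM and B6 at 7 dpp and at 5 dpp, with the mean (line) and SD (bar) of 3 males. In each panel the 7 dpp B6 males lie below the other 3 groups, and for *Krt8* the 7 dpp B6-ChrXMSM males lie between 5.25 and 5.32.

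The largest rise among genes picked by the rule on size was that of *Cbln1*, which encodes a secreted protein of the C1q family known as an organizer of synapses in the cerebellum. Its signals were 6.93, 7.11 and 6.88 in B6-ChrXMSM testes and 3.92, 4.09 and 3.94 in B6 testes. This is a 7.95-fold difference (log2 fold change 2.99, standard error 0.08, adjusted p = 1.54e-06 from limma), seen by all 3 probe sets of the gene. *Cbln4* of the same family rose by 1.52 (adjusted p = 0.000160), with 5.88, 5.67 and 5.46 in B6-ChrXMSM testes against 4.13, 4.43 and 3.90 in B6 testes. *Cnmd*, which encodes chondromodulin, an inhibitor of vessel growth in cartilage, was at 5.25, 5.56 and 5.89 in B6-ChrXMSM testes and at 3.45, 3.02 and 2.41 in B6 testes (log2 fold change 2.61, adjusted p = 0.000163). Of the 3 other tested genes of cartilage and tendon, none was called.

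Secreted proteins and enzymes made up much of the rest. *Adamts16*, a secreted metalloprotease of the developing gonad, gave 5.80, 5.82 and 5.69 in B6-ChrXMSM testes and 3.80, 4.25 and 3.93 in B6 testes (log2 fold change 1.78, adjusted p = 2.50e-05). The lectin gene *Zg16* rose by 1.52 (adjusted p = 4.81e-05) and *Lgals7*, which encodes galectin-7, by 1.14 (adjusted p = 4.13e-05). *Igfbp5*, which encodes a binding protein of insulin-like growth factors, gave 6.86, 6.79 and 6.84 in B6-ChrXMSM testes and 5.77, 6.04 and 5.18 in B6 testes. It was the only called gene among 14 tested genes of that axis, by 1 of its 2 probe sets. *Vnn1*, the pantetheinase gene that marks the early testis, was at 7.06, 6.86 and 6.94 in B6-ChrXMSM testes and at 6.01, 5.99 and 5.82 in B6 testes. *Pmaip1*, which encodes the cell death protein NOXA, rose by 1.14 (adjusted p = 5.10e-05) and was the higher gene of 24 tested cell cycle inhibitors, p53 targets and apoptosis genes. *Spsb1*, an adaptor of a ubiquitin ligase, completed the 15 genes with a rise of 1.03 (adjusted p = 0.00192). *Cdkn2a* and *Sesn2* were the lower genes of the p53 list, and *Ccng1* was called by another probe set.

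Single enzymes of prostaglandin and steroid synthesis were higher. *Ptgds*, the prostaglandin D2 synthase that acts downstream of *Sox9*, was at 5.68, 5.72 and 5.82 in B6-ChrXMSM testes and at 3.76, 3.94 and 3.67 in B6 testes (log2 fold change 1.95, standard error 0.08, adjusted p = 8.87e-06 from limma), and both of its probe sets were called. *Ptges*, a prostaglandin E synthase, rose by 0.79 (adjusted p = 9.81e-05). The hydroxysteroid dehydrogenase gene *Hsd17b1* was at 7.50, 7.64 and 7.68 in B6-ChrXMSM testes and at 6.42, 6.59 and 6.59 in B6 testes. *Hsd17b3*, which encodes the enzyme that makes testosterone from androstenedione, was at 7.95, 7.94 and 8.06 in B6-ChrXMSM testes and at 7.12, 7.28 and 7.23 in B6 testes (log2 fold change 0.78, adjusted p = 9.58e-05). It was 1 of 2 higher genes among 10 tested genes of the list for Leydig cells and steroid synthesis, which does not place each gene in 1 cell type. The other was *Akr1c14*, an enzyme of steroid reduction (0.64, adjusted p = 0.000666), whose call was lost without B6 male 3. The first steps of steroid synthesis, *Star* (-0.47), *Cyp11a1* (0.10) and *Cyp17a1* (-0.79, adjusted p = 0.114), were not called.

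The cyclin D genes went opposite ways. *Ccnd2*, the cyclin of growing Sertoli cells and early spermatogonia, was at 9.91, 9.77 and 9.73 in B6-ChrXMSM testes and at 8.96, 9.17 and 9.10 in B6 testes (log2 fold change 0.72, adjusted p = 0.000259 from limma), and 6 of its 7 probe sets were called higher. *Ccnd1* was at 4.89, 5.00 and 5.15 in B6-ChrXMSM testes and at 5.83, 5.64 and 5.75 in B6 testes (-0.73, adjusted p = 0.000357). Together with *Ccne2* (-0.63) they were the called genes of 31 tested genes of cell cycle and DNA replication, apart from *Bub1*, called by another probe set. *Inhba*, which encodes the activin A subunit that drives Sertoli cell growth, rose by 0.65 (adjusted p = 0.00130) and was lost from the calls when B6-ChrXMSM male 1 was left out. *Socs2*, a brake on cytokine and growth hormone signals, rose by 0.71 (adjusted p = 8.64e-05), *Greb1*, an early target of steroid receptors, by 0.86 (adjusted p = 0.000364), and the chemokine gene *Cxcl12*, which germ cells sense, by 0.62 (adjusted p = 0.000164).

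Other Sertoli cell genes did not move as one. Of 23 tested genes, 2 were called higher (*Ptgds* and *Hsd17b1*) and 2 lower, with a median log2 fold change of 0.15 against 0.00 over all genes. The lower ones were *Cldn11* and *Gata1*, a transcription factor that Sertoli cells begin to express after birth, which had 3.11, 3.42 and 3.41 in B6-ChrXMSM testes and 4.18, 4.10 and 4.24 in B6 testes (-0.87, adjusted p = 0.000264 from limma). *Amh*, the hormone of immature Sertoli cells, was at 4.32, 4.51 and 4.51 in B6-ChrXMSM testes and at 4.28, 3.82 and 3.75 in B6 testes, a log2 fold change of 0.50 that did not reach 1.5-fold. The receptor of follicle stimulating hormone, *Fshr*, likewise had 0.44.

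The same contrast at 5 dpp rests on other males of both strains. Of the 219 higher autosomal probe sets, 174 (79.5%) had a positive fold change at 5 dpp, against 49.0% of all tested autosomal probe sets. Yet 71.8% of all tested autosomal probe sets had the same sign at both ages, a share not far below 79.5%. The median of the 219 at 5 dpp was 0.18 and 5 were called, while 0.0606% of all autosomal probe sets tested at 5 dpp were called higher. Their median signal was 4.99 in B6-ChrXMSM testes and 4.06 in B6 testes at 7 dpp, and 5.22 in B6-ChrXMSM testes and 5.05 in B6 testes at 5 dpp. The 7 dpp values chose these probe sets, so their low level in B6 at 7 dpp is no finding, whereas those at 5 dpp were not used. *Cbln1* illustrates the 5 dpp levels, with 8.43, 7.75 and 7.99 in B6-ChrXMSM testes and 7.76, 7.85 and 7.84 in B6 testes. *Dsp* stood at 7.52, 7.35 and 7.37 in 5 dpp B6-ChrXMSM testes and at 6.89, 6.98 and 6.75 in 5 dpp B6 testes. *Krt8* had 5.85, 5.89 and 5.38 in 5 dpp B6-ChrXMSM testes and 5.59, 6.09 and 4.73 in 5 dpp B6 testes, and there the groups overlapped.

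A term for the strain difference changing with age was fitted to the 12 arrays of both strains and ages. Over all probe sets, the term was called more positive at 7 dpp in 124 of 17483 probe sets (0.709%) and more negative in 121 (0.692%). Among the 219 higher autosomal probe sets it was called more positive in 74, a count that uses the same 7 dpp values that chose them. Of the 15 named higher genes, also chosen by their 7 dpp values, 13 had such a term. Among them were *Cbln1* (2.75, adjusted p = 0.000137), *Dsg2* (1.36, adjusted p = 0.000860), *Dsp* (1.22, adjusted p = 0.00146) and *Adamts16* (1.48, adjusted p = 0.00197), all from limma on the 12 arrays. When the spread was instead estimated from all 38 arrays, 2 probe sets stayed called more positive and 1 more negative, and none of these named genes was among them, with adjusted p from 0.0612 to 0.433 over the 20 named genes that had a called term in the fit of 12 arrays. Without single males, the count of more positive terms ran from 71 (B6 male 2 of 5 dpp left out) to 204 (B6 male 3 of 5 dpp left out). The median residual SD of the called probe sets was 0.234 in the fit of 38 arrays and 0.144 in that of 12.

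Genes of tissues next to the testis also differed between the groups. A probe set that the study lists as *Crisp1*, a secretory protein of the epididymis, and that the platform annotation leaves without a gene, gave 4.07, 4.26 and 5.13 in B6-ChrXMSM testes and 0.26, 0.33 and 0.13 in B6 testes at 7 dpp. At 5 dpp it gave 5.02, 5.82 and 0.02 in B6-ChrXMSM testes and 5.24, 5.82 and 2.95 in B6 testes. The signal was thus high in the 3 B6-ChrXMSM males and near 0 in the 3 B6 males at 7 dpp, and varied between males of 1 group at 5 dpp. *Spink8*, a protease inhibitor gene of the epididymis, had a similar order, with 3.25, 4.18 and 4.61 in B6-ChrXMSM testes and 1.45, 1.80 and 1.96 in B6 testes (log2 fold change 2.28, adjusted p = 0.000774 from limma), and its call was lost in the fit over all 38 arrays (adjusted p = 0.145). *Lcn5*, *Adam7* and *Rnase10*, which mark the mature epididymis, stayed at or below 1.14 in all 6 males. Of 30 genes of the list of rete testis, efferent duct and epididymis on the array, 4 passed the filter on low signals, and 0 were higher and 1 lower. The linear signal summed over that list was 504, 503 and 506 in B6-ChrXMSM testes and 473, 456 and 457 in B6 testes.

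Genes of the mesothelium, the surface lining of the testis, had a median log2 fold change of 0.32 over 11 tested genes. Of these, 3 were higher and 1 lower, against 1.63% and 4.47% of all tested genes. The higher ones were *Upk3b* (0.99, adjusted p = 0.0168), *Gpm6a* (0.76, adjusted p = 0.0139) and *Igfbp5*, of which *Upk3b* lost its call without B6-ChrXMSM male 1 or 3 and with an intensity trend in the fit (adjusted p up to 0.0658), and the lower one was *Bnc1* (-1.05), a transcription factor that germ cells also express. The fat genes were uneven between males. *Fabp4*, the fatty acid binding protein of fat cells, gave 6.38, 3.14 and 2.97 in B6-ChrXMSM testes and 1.69, 1.89 and 1.39 in B6 testes, and *Car3*, a carbonic anhydrase of fat and muscle, gave 8.01, 4.41 and 2.51 in B6-ChrXMSM testes and 0.62, 2.18 and 1.22 in B6 testes. Both were highest in B6-ChrXMSM male 1, as was *Adipoq*, the fat cell hormone, with 4.23 there and from 0.59 to 1.37 in the other 5 males. Both were called higher (log2 fold change 2.51 with adjusted p = 0.0319, and 3.64 with adjusted p = 0.0356), but each call was lost when any single B6 male was left out, and without B6-ChrXMSM male 1 *Fabp4* no longer passed the filter on low signals. At 5 dpp, *Fabp4* ran from 2.40 to 7.44 in B6-ChrXMSM testes and from 3.61 to 8.80 in B6 testes.

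The order of males within groups can be set beside these markers. In each of the 6 groups, the 3 males had the same order by *Krt8* as by the *Crisp1* probe set. Some of these orders rest on small differences. In 7 dpp B6 males the *Crisp1* values ran only from 0.13 to 0.33, and in 7 dpp B6-ChrXMSM males *Krt8* was at 5.25, 5.26 and 5.32. *Krt8* had the most such groups among the genes compared, which were the 15 named higher autosomal genes, *Krt18* and *Spink8*. The same was so in 4 of 6 groups for *Krt18*, *Spink8*, *Dsg2* and *Igfbp5*, in 3 of 6 for *Dsp*, in 1 of 6 for *Cbln1*, and in 0 of 6 for *Lgals7*, *Pmaip1* and *Vnn1*. An order of 3 males can match by accident, and the agreement of orders was not tested. In B6-ChrXTMSM males of 7 dpp, *Krt8* was at 4.83, 4.58 and 5.14 and the *Crisp1* probe set at 1.44, 0.06 and 5.62. In MSM males they were at 5.47, 4.07 and 5.17 and at 6.51, 4.01 and 6.39. In B6-ChrXMSM male 3 of 5 dpp, *Krt8* was at 5.38 while the *Crisp1* probe set was at 0.02 and *Spink8* at 1.71. These were the lowest values of its group. In the highest 7 dpp B6 male, *Krt8* was at 3.57 and the *Crisp1* probe set at 0.33. The ductal keratins *Krt7* (2.69, 2.33 and 2.82 in B6-ChrXMSM testes and 1.88, 2.02 and 1.53 in B6 testes) and *Krt19* (3.01, 3.28 and 3.17 in B6-ChrXMSM testes and 2.63, 2.59 and 2.04 in B6 testes) lay below the filter in both groups but did not overlap. The rete testis gene *Cdh16* (means 3.19 and 2.34) did not overlap either, whereas *Pax8*, another such gene, did (means 1.83 in B6-ChrXMSM testes and 1.91 in B6 testes). Both lay below the filter. Non-overlap was common among tested probe sets too, as only 7795 of 16618 autosomal ones overlapped between the groups at 7 dpp. The part of duct, mesothelium or fat tissue in the higher calls was not tested.

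**Figure D2:**
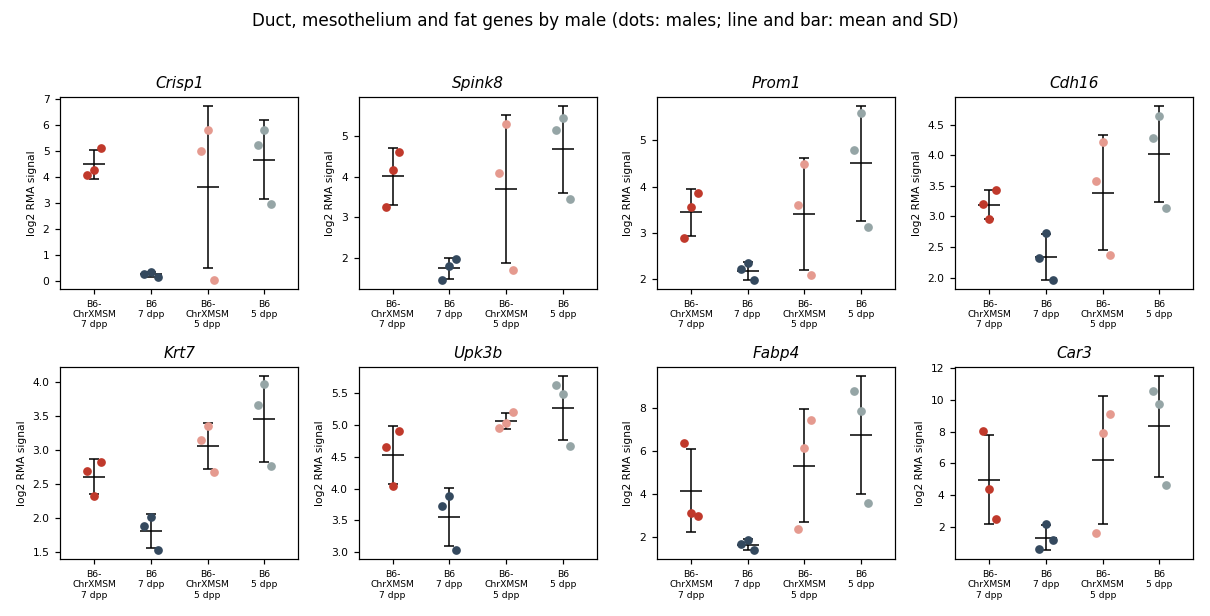
Log2 RMA signal (vertical axis) of 8 genes of duct, mesothelium and fat in single males (dots), with the mean (line) and SD (bar) of 3 males per strain and age. *Crisp1* stands for the probe set that only the study's list names. It lies between 4.07 and 5.13 in B6-ChrXMSM males and between 0.13 and 0.33 in B6 males at 7 dpp.

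Among stromal and immune cells, few genes were called. The macrophage and leukocyte list had *Lyz2*, which encodes lysozyme (6.06, 5.96 and 6.01 in B6-ChrXMSM testes, 5.05, 5.43 and 5.51 in B6 testes), and *Cd52* as higher genes of 15 tested, and both calls depended on single arrays, as 0 of them remained without B6 male 1. The macrophage genes *Csf1r* (-0.16) and *C1qa* (-0.04) were not called. In the endothelial list of 12 genes, *Erg* was lower, with 3.47, 3.21 and 3.54 in B6-ChrXMSM testes and 4.49, 4.54 and 4.63 in B6 testes, while *Cdh5* (0.28) and *Kdr* (0.04) were not called. For peritubular myoid cells the median over 13 genes was -0.25, with *Myh11* at 6.41, 6.51 and 6.64 in B6-ChrXMSM testes and at 7.09, 7.03 and 7.03 in B6 testes (log2 fold change -0.53, not called), and with *Cnn1* the 1 called gene (-0.60, adjusted p = 0.0387). None of 18 skeletal muscle genes and 7 red blood cell genes on the array passed the filter.

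In the extracellular matrix, *Vcan*, a large proteoglycan (0.63, adjusted p = 0.000796), *Mmp2*, a gelatinase (0.71, adjusted p = 0.000709), and *Col13a1*, a transmembrane collagen (0.68, adjusted p = 0.000499), were higher, of 20 matrix genes and 17 collagens tested. The *Vcan* call was lost without B6 male 3 and in the fit over all 38 arrays (adjusted p = 0.0503). None of 20 basement membrane genes was called by its strongest probe set, and *Col4a6* was called higher by another. Of 22 genes of FGF, GDNF and KIT signalling, *Fgf18* (0.76, adjusted p = 0.00231) was higher, *Kit* (-1.40) and *Fgfr3* (-0.77) were lower, and *Egfr* and *Pdgfa* were called by another probe set. *Wnt4* (0.62, adjusted p = 0.00589) was higher, but not without B6-ChrXMSM male 1 or 3 or B6 male 3, and *Bmp7* (-0.73, adjusted p = 0.000139) and the NOTCH target *Hey1* (-0.77, adjusted p = 0.000773) were lower. Among 14 tested interferon-induced genes, *Ifit2* (0.70) and *Ifitm2* (0.67) were higher, against 1.63% of all tested genes. All 19 tested imprinted genes had a positive log2 fold change, from 0.03 to 0.57 with a median of 0.23, and none reached the threshold of a call, whereas 50.8% of all tested genes were positive.

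**Figure D3:**
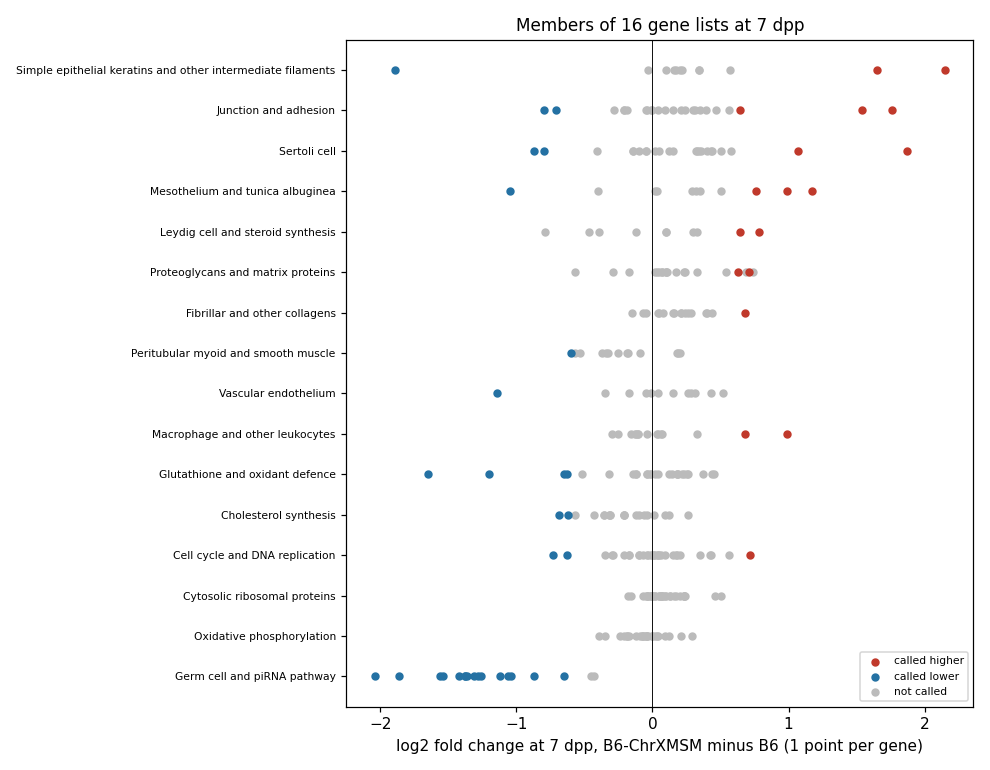
Log2 fold change at 7 dpp, B6-ChrXMSM minus B6 (horizontal axis), of each tested member (point) of 16 gene lists, by call. Red points are called higher, blue lower and grey not called. *Krt8* at 2.15 and *Ptgds* at 1.87 by its strongest probe set stand farthest to the right, and the germ cell list lies wholly to the left of 0.

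Beyond the meiotic genes, the lower autosomal genes included the metallothionein pair, small metal-binding proteins that buffer zinc and oxidants. *Mt2* was at 7.25, 6.86 and 7.18 in B6-ChrXMSM testes and at 8.65, 8.80 and 8.79 in B6 testes, and *Mt1* at 7.26, 7.05 and 7.11 in B6-ChrXMSM testes and at 8.21, 8.33 and 8.47 in B6 testes. No B6-ChrXMSM male reached a B6 male, which was required of *Mt2* as a gene named by size of change. The log2 fold changes were -1.65 (standard error 0.10, adjusted p = 2.67e-05) and -1.20 (standard error 0.08, adjusted p = 4.26e-05), both from limma, and at 5 dpp they were -1.37 and -0.88, also called. With *Gclm* (-0.65, by 1 of 2 probe sets) and *Gsr* (-0.63, not called without B6 male 3), enzymes that make and recycle glutathione, they were the 4 called genes of 27 for glutathione and oxidant defence. All 4 were lower, as were most calls over all tested genes (4.47% lower and 1.63% higher), and the list's median was 0.02.

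The promoters of the metallothionein pair are shown because both genes fell and because metals act on them through the metal response element. The 250 bases before the start (RefSeq, GRCm38.p6, plus strand) are at chr8:94178839-94179088 for *Mt1* and chr8:94172368-94172617 for *Mt2*, with capitals for TGCACNC or TGCGCNC on either strand.
Mt1: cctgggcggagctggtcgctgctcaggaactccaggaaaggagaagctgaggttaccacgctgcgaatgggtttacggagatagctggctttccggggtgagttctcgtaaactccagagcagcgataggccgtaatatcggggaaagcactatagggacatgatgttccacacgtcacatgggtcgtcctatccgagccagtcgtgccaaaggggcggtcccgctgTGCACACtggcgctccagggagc
Mt2: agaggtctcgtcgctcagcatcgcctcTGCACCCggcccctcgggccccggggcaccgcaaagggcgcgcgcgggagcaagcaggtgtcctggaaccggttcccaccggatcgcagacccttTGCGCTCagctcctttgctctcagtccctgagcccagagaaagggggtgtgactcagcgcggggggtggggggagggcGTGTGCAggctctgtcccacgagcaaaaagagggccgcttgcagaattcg
The *Mt1* window held 1 match and the *Mt2* window 3, and 21.4% of all promoter windows held at least 1. Only these windows before the RefSeq start were searched, so the counts do not cover elements beyond that start. The matches name no bound factor.

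Other lower autosomal genes had various roles, and *Dgat2*, *Srebf2* and *Lss* below were not among the 10 named by size of change. *Reln*, an extracellular guidance protein of neurons, was at 3.60, 3.58 and 3.62 in B6-ChrXMSM testes and at 5.35, 5.77 and 5.30 in B6 testes (log2 fold change -1.87, adjusted p = 2.67e-05 from limma). *Rbp4*, the carrier of retinol, was at 3.98, 3.58 and 3.93 in B6-ChrXMSM testes and at 5.49, 5.55 and 5.80 in B6 testes, and was 1 of 3 lower genes of 13 in the retinoic acid pathway, beside *Crabp1* and *Stra8*. *Ero1a*, an oxidase that forms disulfide bonds in the endoplasmic reticulum, fell by 1.62 (adjusted p = 8.87e-06) by 1 of 3 probe sets, the others being at -0.37 and -0.29 and not called, and the study places that probe set on another chromosome than the platform annotation does. Of 21 genes of the unfolded protein response only *Hyou1* was lower. *Dgat2*, the last enzyme of triglyceride synthesis, was at 4.04, 3.94 and 3.88 in B6-ChrXMSM testes and at 4.85, 5.30 and 5.18 in B6 testes. *Srebf2*, the regulator of cholesterol synthesis (-0.69), and *Lss*, a synthase of that path (-0.62), were the 2 called genes of 20 (4.47% of all tested genes were called lower), and *Stard4* was called by another probe set. Each was called by 1 of 2 probe sets (the others were at -0.08 and 0.12), *Srebf2* not without B6-ChrXMSM male 2, and *Lss* not without that male, without B6 male 3 or with array medians subtracted. *Galnt12*, an enzyme of mucin glycans, fell by 1.63 and *Rbm44*, an RNA-binding protein of germ cell bridges, by 1.62.

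**Figure D4:**
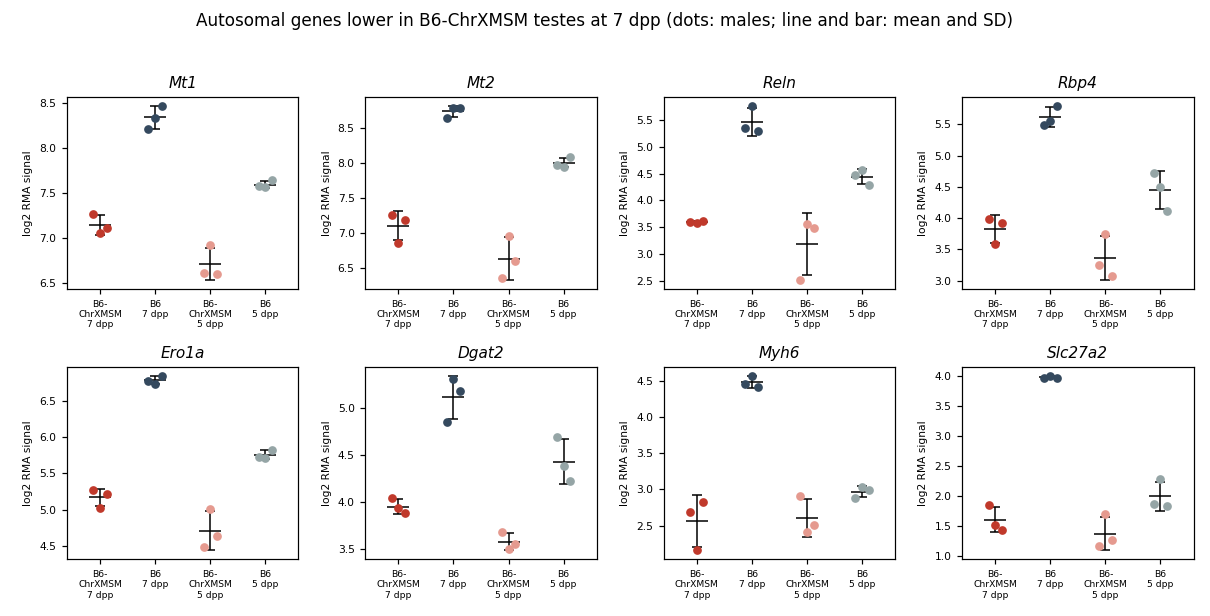
Log2 RMA signal (vertical axis) of 8 lower autosomal genes in single males (dots) of B6-ChrXMSM and B6 at 7 dpp and 5 dpp, with the mean (line) and SD (bar) of 3 males. At 7 dpp no B6-ChrXMSM male reaches a B6 male in any panel, which was required for *Mt2*, *Reln*, *Rbp4* and *Ero1a* to be named. *Mt2* lies between 6.86 and 7.25 in B6-ChrXMSM males.

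Some lower genes were seen by part of their probe sets only. *Rictor*, a core subunit of the TORC2 kinase complex, fell by 1.62 by 1 of 4 probe sets, *Atp13a3*, a transporter of polyamines, by 1.79 by 1 of 2, *Cacul1*, a cullin-associated protein, by 1.65 by 1 probe set and by less in another of 4, and *Naa30*, a protein acetyltransferase, by 1.61 by 1 of 2. Of 388 genes with 2 or more tested probe sets and at least 1 called lower, 326 had another that was not called. The same held for 65 of 92 genes with a higher call. A probe set reads one stretch of a transcript, and which transcript forms differ between the groups was not tested.

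Of the 715 lower autosomal probe sets, 698 had a negative log2 fold change at 5 dpp (97.6%), the median was -0.45, and 175 were called lower at that age. Over all tested autosomal probe sets, 71.8% had the same sign at both ages, 49.0% had a positive fold change at 5 dpp and the median was 0. Of the autosomal probe sets tested at 5 dpp, 1.19% were called lower. In 106 of the 715 the strain by age term was called more negative, a count that again uses the 7 dpp values that chose them. The share over all autosomal probe sets in that fit was 0.654%. *Myh6*, a heart muscle myosin, was at 2.69, 2.16 and 2.83 in B6-ChrXMSM testes and at 4.45, 4.57 and 4.42 in B6 testes at 7 dpp, and the strain by age term was -1.56 (adjusted p = 0.00714 from limma). *Slc27a2*, a fatty acid transporter, was at 1.84, 1.52 and 1.43 in B6-ChrXMSM testes and at 3.98, 4.01 and 3.98 in B6 testes (term -1.77, adjusted p = 0.00258). *Runx3*, a transcription factor, was at 1.24, 1.27 and 1.02 in B6-ChrXMSM testes and at 3.13, 3.42 and 3.67 in B6 testes, and its term of -2.11 was also called in the fit of all 38 arrays. These 3 genes were picked after their values were seen, and their B6-ChrXMSM signals are low enough that the size of the change is uncertain.

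Higher X-linked genes outside of meiosis are given beside their level in MSM testes. Of all higher X-linked probe sets, 87.9% lay within 1.5-fold of the MSM mean, as did 87.6% of all tested X-linked ones. *Septin6*, a filament protein of the cytoskeleton (X chromosome of mm9, 34455025 to 34529483), gave 6.18, 6.03 and 6.03 in B6-ChrXMSM testes and 3.61, 3.27 and 3.50 in B6 testes, with 5.53, 5.62 and 5.64 in MSM testes. Of its 6 probe sets, 4 were called higher and 1 lower. *Hs6st2*, a sulfotransferase of heparan sulfate, was at 6.24, 6.12 and 5.95 in B6-ChrXMSM testes and at 4.41, 4.71 and 4.71 in B6 testes by 1 of 2 probe sets, with 5.95, 6.23 and 6.15 in MSM testes. *Kdm5c*, a histone H3 lysine 4 demethylase, rose by 1.35 by 1 of 6 probe sets (adjusted p = 1.11e-05 from limma), and its other 5 were not called. *C330007P06Rik* (1.54) and *Acsl4*, an enzyme that activates arachidonic acid (0.93), each had a probe set called in the opposite direction. For *C330007P06Rik* the study places the higher probe set on another chromosome than the platform annotation does, so its place on the X chromosome is uncertain.

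A further 3 genes of membrane signalling and amine breakdown were higher. *Itm2a* was so by both of its 2 tested probe sets, while *Agtr2* and *Maob* had only 1 each. *Agtr2*, the angiotensin type 2 receptor of fetal mesenchyme (X chromosome of mm9, 21061669 to 21066290), was at 7.02, 6.64 and 6.85 in B6-ChrXMSM testes and at 5.68, 5.98 and 5.55 in B6 testes (log2 fold change 1.10, adjusted p = 0.000410). *Itm2a*, a membrane protein of cartilage and muscle precursors (104592533 to 104598677), was at 9.15, 9.12 and 9.23 in B6-ChrXMSM testes and at 8.05, 8.34 and 8.04 in B6 testes (1.03, adjusted p = 9.81e-05). *Maob*, a monoamine oxidase (16286407 to 16309305), was at 6.21, 6.08 and 6.36 in B6-ChrXMSM testes and at 5.36, 5.42 and 5.17 in B6 testes (0.90, adjusted p = 0.000224). MSM testes had 6.64, 6.42 and 6.37 of *Agtr2*, 8.97, 8.97 and 9.0 of *Itm2a* and 6.00, 5.92 and 5.99 of *Maob*. *Gpc3*, a heparan sulfate proteoglycan that restrains growth (0.85, adjusted p = 0.000111), and *Maoa*, the neighbour of *Maob* (0.62 by 1 of 2 probe sets), were higher too. At 5 dpp, *Agtr2* had 7.98, 7.70 and 8.05 in B6-ChrXMSM testes and 7.95, 7.83 and 7.46 in B6 testes, and its strain by age term was 0.93 (adjusted p = 0.0383).

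In B6-ChrXTMSM males, which share the distal MSM segment only, *Septin6* was at 3.51, 3.15 and 3.62, and *Kdm5c*, which lies at 148691371 to 148692025 on the X chromosome of mm9, at 5.48, 5.16 and 5.18. *Agtr2*, which lies outside of that segment, was at 6.68, 6.54 and 6.68. These arrays were set beside the same B6 arrays, and no difference was tested.

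**Figure D5:**
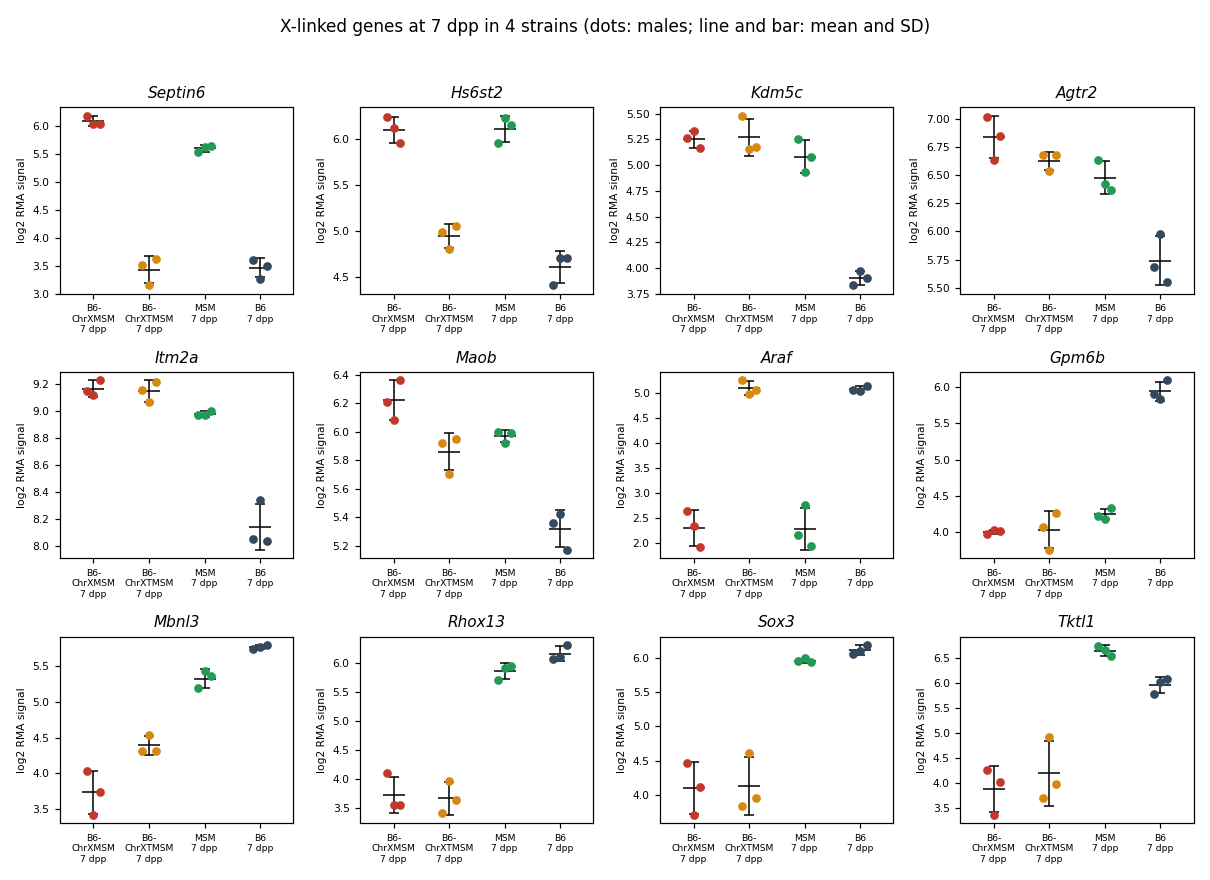
Log2 RMA signal (vertical axis) of 12 X-linked genes at 7 dpp in single males (dots) of 4 strains, with the mean (line) and SD (bar) of 3 males. *Septin6* and *Hs6st2* lie with MSM in B6-ChrXMSM males and near B6 in B6-ChrXTMSM males. *Rhox13*, *Sox3* and *Tktl1* lie below both MSM and B6 in B6-ChrXMSM males and in B6-ChrXTMSM males alike.

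Of the 33 higher X-linked probe sets, 29 were within 1.5-fold of the MSM mean (87.9%), a share like that of all 501 tested X-linked probe sets (87.6%). Of the 74 lower ones, 38 were within it (51.4%). Against MSM testes, 8 of 487 X-linked probe sets were called higher in B6-ChrXMSM testes (1.64%) and 54 lower (11.1%).

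Lower X-linked genes fell into those that MSM testes also had low and those that MSM testes had high. *Gpm6b*, a membrane glycoprotein of the proteolipid family (162782623 to 162821932), was at 3.98, 4.04 and 4.02 in B6-ChrXMSM testes and at 5.91, 5.83 and 6.09 in B6 testes by 1 of 3 probe sets, with 4.22, 4.19 and 4.33 in MSM testes. *Araf*, a kinase of the RAF family, was at 2.64, 2.33 and 1.92 in B6-ChrXMSM testes and at 5.06, 5.03 and 5.14 in B6 testes, again by 1 of its 4 probe sets and with 2.16, 2.75 and 1.93 in MSM testes. *Vegfd*, a growth factor of lymph vessels, was at 3.04, 2.65 and 3.35 in B6-ChrXMSM testes and at 4.78, 4.55 and 4.33 in B6 testes (log2 fold change -1.54, adjusted p = 0.000365 from limma), with both probe sets called and MSM males at 3.56, 3.26 and 3.79.

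On the other side stood *Rhox13*, a homeobox gene of germ cells, with 4.10, 3.56 and 3.55 in B6-ChrXMSM testes and 6.07, 6.11 and 6.31 in B6 testes, against 5.70, 5.92 and 5.95 in MSM testes. *Sox3*, a transcription factor of spermatogonia, was at 4.46, 3.71 and 4.12 in B6-ChrXMSM testes and at 6.06, 6.10 and 6.19 in B6 testes, and in MSM testes at 5.95, 6.00 and 5.94. *Tktl1*, a transketolase-like gene, *Mbnl3*, a splicing regulator, *Fam90a1b* and *Tex11*, a gene of meiotic recombination, were likewise called lower in B6-ChrXMSM testes than in MSM testes, with log2 fold changes from -2.76 to -1.61. *Mbnl3* had a second probe set called higher than in B6 testes. *Rhox13*, *Sox3*, *Tktl1* and *Mbnl3* lie outside of the distal segment that B6-ChrXTMSM males carry from MSM. Their means in those males were 3.67, 4.13, 4.19 and 4.39, against 6.16, 6.12, 5.95 and 5.77 in B6 testes, a difference that was not tested.

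In several lists of common cell functions, no gene was called by any probe set. These were 25 genes of oxidative phosphorylation, 19 of glycolysis and lactate, 22 immediate early and heat shock genes, 11 homeobox genes outside of the Rhox cluster and 25 axon guidance genes, with list medians from -0.05 to 0.25. Among 33 cytosolic ribosomal protein genes and 11 of hedgehog signalling, *Rps20* and *Hhip* were called higher, each by a probe set other than its strongest.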

How the data were processed

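RNA of whole testes, 1 male per array, was hybridised by the authors to Affymetrix Mouse Genome 430 2.0 arrays. The deposited values are log2 signals that the authors made by RMA in GeneSpring GX (version not given in the sources used here), which corrects background, normalizes quantiles and summarises 45101 probe sets. Each value rests on 1 array, and 3 arrays per group limit the precision. No source used here says whether males of a group came from separate litters, so p-values measure the spread between these males.

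By the platform annotation, 34958 probe sets had 1 gene, 932 several and 9211 none, and those with 1 gene on an autosome or the X chromosome were kept. Of 1129 X-linked probe sets, 236 that the study lists as polymorphic were left out, and autosomal ones were kept. Probe sets whose mean passed a linear signal of 10 in either group were tested with limma 3.58.1 (R 4.3.3) with Benjamini-Hochberg adjustment, on the 6 arrays. Calls needed an adjusted p under 0.05 and a change of 1.5-fold. Strain by age was fitted on 12 arrays. The model was tested on simulated data.

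Named genes were the largest called changes without overlap and with a mean signal of at least 5 in the higher group (15 and 10 autosomal, 8 and 8 X-linked, the lower autosomal ones outside of the germ cell lists), plus called members of 47 gene lists and cell type markers. Further genes were added after their values were seen. In lists, 1 probe set per gene, that with the strongest signal, was used. The members and lists were chosen with earlier results of these data known. The study's own comparisons were not used. Alternatives changed the filter, scaling, fit, probe sets and arrays.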

Additional observations from a re-analysis of the deposited data

Results flagged for a closer look

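The strain by age term was called in 20 of the 41 named genes by the fit of 12 arrays, and in none of them by the fit of all 38 arrays. The 7 dpp values that chose these genes are part of the term, which favours a term in the direction of the 7 dpp difference. Over all probe sets in the fit of 12 arrays, 0.709% were called more positive and 0.692% more negative. A positive term means a larger B6-ChrXMSM minus B6 difference at 7 dpp than at 5 dpp. Among keratin, desmosome and secreted protein genes it was 2.75 for *Cbln1*, 2.28 for *Cnmd*, 1.92 for *Krt8*, 1.22 for *Dsp*, 1.36 for *Dsg2*, 1.33 for *Cbln4*, 1.28 for *Igfbp5*, 1.04 for *Zg16* and 0.66 for *Lgals7*. Among enzymes it was 1.23 for *Ptgds*, 1.48 for *Adamts16*, 0.79 for *Hsd17b1* and 0.72 for *Vnn1*. It was negative for the autosomal genes *Atp13a3* (-0.95) and *Naa30* (-0.89). On the X chromosome it was 0.66 for *Hs6st2*, 0.93 for *Agtr2*, -1.83 for *Fam90a1b*, -1.47 for *Rhox13* and -1.07 for *Mbnl3*.

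The *Crisp1* probe set, which has no gene in the platform annotation and entered no test, averaged 4.49 in B6-ChrXMSM testes and 0.24 in B6 testes at 7 dpp.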

How the results depend on the processing

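All 41 named genes were called in the same direction under each alternative of the 7 dpp comparison in which they were tested. With 1 probe set per gene, fewer features being tested, 405 autosomal genes were lower, 15 X-linked genes higher and 46 lower. Leaving out single arrays gave 209 to 253 higher and 637 to 795 lower autosomal probe sets, and 32 to 38 higher and 72 to 75 lower X-linked ones. At 5 dpp it gave 23 to 28 higher and 123 to 338 lower ones, with 123 without B6 male 2, 131 without B6 male 1, 162 without B6 male 3 and 147 without B6-ChrXMSM male 3. Against MSM it gave 7 to 10 higher and 50 to 60 lower. The strain by age counts were least stable. They ran from 71 to 204 more positive and from 68 to 150 more negative, and one fit over all 38 arrays gave 2 and 1. More positive terms numbered 73, 71 and 204 without B6 males 1, 2 and 3 of 5 dpp, and 82 and 80 without B6 males 1 and 3 of 7 dpp. More negative ones numbered 74 and 78 without B6 males 1 and 2 of 5 dpp, 80 without B6-ChrXMSM male 2 of 5 dpp, and 68 without B6 male 3 of 7 dpp. The cause was not tested. Among named genes, the *Krt8* term was lost in 9 of 13 such settings, that of *Hs6st2* in 10 and that of *Agtr2* in 7.

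Same-numbered males did not deviate together (correlations -0.17, 0.02 and -0.04), so the numbers pair no samples. With the replicate block, 218 autosomal probe sets were higher and 711 lower, and 33 and 74 X-linked ones. Of 1410 list counts, 102 moved by over 1.5 times, mostly small counts.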
